A study of Mus musculus with 27 samples.

Results

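The 10 genes described here, Klf2, Klf3, Klf4, Foxo1, Foxo3, Btg1, Btg2, Tsc22d3, Txnip and Pik3ip1, are genes known for holding resting lymphocytes in quiescence. They were chosen by gene name from the 54532 genes of the count tables, and all 10 were found once in each of 2 RNA-seq experiments. The cells were splenic B cells of wild-type (WT) C57BL6 mice, isolated untouched by magnetic depletion of other cells, then cultured for 3 h. In the first experiment, 5 groups of 4 libraries were unstimulated cells, cells given LPS or IL-4+anti-CD40 with vehicle (DMSO), and cells given either stimulus with 1 μM disulfiram (DSF). LPS is a T-independent stimulus, and IL-4+anti-CD40 stands in for T-cell help. The second experiment had 1 library each of the same 5 conditions and of both stimuli with 1 μM ibrutinib, an inhibitor of the kinase Btk, 7 libraries in all. The study's figure legends call the cells given either drug pre-treated. Below, DSF or ibrutinib added means that the culture held the drug, not that it followed the stimulus. No group was given DSF or ibrutinib without a stimulus, so neither drug was measured on resting cells. The labels give neither the age of the mice nor how many mice each library came from, and p-values measure the spread between these libraries.

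Quiescence in lymphocytes is kept actively by transcription factors and by proteins that restrain growth signals. KLF2, KLF3 and KLF4 are zinc-finger factors of the Krüppel-like family, and FOXO1 and FOXO3 are forkhead factors that AKT, downstream of PI3K, drives out of the nucleus once the antigen receptor or a growth signal engages. BTG1 and BTG2 bind the CCR4-NOT deadenylase and restrain proliferation, TSC22D3 (also known as GILZ) is a glucocorticoid-induced leucine zipper protein and a known FOXO3 target, TXNIP is an alpha-arrestin that binds thioredoxin and limits glucose uptake, and PIK3IP1 is a membrane protein that inhibits PI3K.

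The promoters of 4 of these genes are shown, since Klf2 and Txnip stayed low in the first experiment where DSF was added, Btg2 rose and Btg1 stayed abundant in every group. Each is the 250 bases upstream of the RefSeq start on GRCm38.p6, 5′ to 3′ on the gene's own strand, with motif matches in capitals. All 10 genes had a promoter window in the RefSeq table, Tsc22d3 3 of them, and 6 motifs chosen after the windows had been read were searched on both strands. The windows lie at chr3:96557707-96557956 (Txnip, plus strand), chr10:96616751-96617000 (Btg1, plus), chr1:134079156-134079405 (Btg2, minus) and chr8:72318812-72319061 (Klf2, plus).
Txnip: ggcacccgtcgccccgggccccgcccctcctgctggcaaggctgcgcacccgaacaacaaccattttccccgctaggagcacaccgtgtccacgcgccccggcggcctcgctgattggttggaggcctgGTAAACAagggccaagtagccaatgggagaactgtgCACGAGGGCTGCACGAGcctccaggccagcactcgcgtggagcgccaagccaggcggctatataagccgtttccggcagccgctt
Btg1: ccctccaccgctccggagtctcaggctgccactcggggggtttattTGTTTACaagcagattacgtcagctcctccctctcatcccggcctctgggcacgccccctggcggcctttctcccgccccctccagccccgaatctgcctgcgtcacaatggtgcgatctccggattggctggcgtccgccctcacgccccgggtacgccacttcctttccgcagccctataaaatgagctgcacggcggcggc
Btg2: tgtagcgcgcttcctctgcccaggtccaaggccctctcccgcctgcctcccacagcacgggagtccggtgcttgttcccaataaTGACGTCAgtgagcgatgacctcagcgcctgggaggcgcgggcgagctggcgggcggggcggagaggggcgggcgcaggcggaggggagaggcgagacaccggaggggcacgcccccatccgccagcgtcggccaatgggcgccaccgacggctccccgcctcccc
Klf2: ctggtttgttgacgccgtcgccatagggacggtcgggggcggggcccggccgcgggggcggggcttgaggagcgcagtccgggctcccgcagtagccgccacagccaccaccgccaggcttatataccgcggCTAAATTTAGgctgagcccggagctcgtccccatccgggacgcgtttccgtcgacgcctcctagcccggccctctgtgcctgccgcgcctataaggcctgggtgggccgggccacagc
The genes themselves, all protein-coding, lie on mm10, as the count tables place them, at chr8:72319033-72321656 (Klf2), chr5:64803388-64832901 (Klf3), chr4:55527143-55532466 (Klf4), chr3:52268336-52353221 (Foxo1), chr10:42181841-42276755 (Foxo3), chr10:96617006-96622809 (Btg1), chr1:134075170-134079120 (Btg2), chrX:140539528-140600659 (Tsc22d3), chr3:96557957-96561883 (Txnip) and chr11:3330401-3342971 (Pik3ip1). In Txnip the capitals mark a forkhead motif (GTAAACA) that starts 121 bases before the start, and a pair of E-box-like repeats of the kind bound by ChREBP and MLX factors 85 bases before it. In Btg1 they mark the forkhead motif on the other strand (TGTTTAC), in Btg2 a cyclic AMP response element (TGACGTCA) and in Klf2 a MEF2-type motif. The shares of all 32851 promoter windows with a match were 3.17% for the forkhead motif, 0.0457% for the E-box-like pair, 1.55% for the cyclic AMP response element and 3.2% for the MEF2-type motif. The KLF-type motif CCACNCCC, held by 15.9% of all windows, and the palindromic glucocorticoid response element, held by 0.00913%, were in none of the 12 windows of these genes. The marked motifs did not overlap, and a match describes letters in the window, not binding.

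Per length, these genes spanned a wide range of levels in unstimulated cells. By the authors' FPKM, Btg1 stood highest at 198 ± 22.5 (SD, n = 4 in all groups here), followed by Klf2 at 172 ± 75.3, Btg2 at 132 ± 13.6, Txnip at 115 ± 30.3 and Tsc22d3 at 82.8 ± 53.6. A lower tier held Foxo1 at 26.8 ± 0.94, Pik3ip1 at 14.4 ± 1.73, Klf3 at 12.3 ± 2.01, Foxo3 at 11.1 ± 1.62 and Klf4 at 7.03 ± 3.08. Neighbours in this order overlapped between libraries, apart from Tsc22d3 over Foxo1 and Foxo1 over Pik3ip1. After LPS, Btg1 still led at 218 ± 5.35 FPKM and Btg2 came next at 97.3 ± 3.92, while Pik3ip1 was the lowest of the 10 at 2.93 ± 0.38. After IL-4+anti-CD40 the lowest was Klf4, at 2.57 ± 0.28 FPKM.

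Library totals ran from about 17804900 to 23633000 counts in experiment 1 and from about 16049300 to 24619800 in experiment 2, and no library of the former held fewer than 150 counts of any of the 10 genes. All 10 B cell markers listed had counts in every library of the first experiment. The T cell markers Cd3e and Cd4 did not exceed 53 and 14 counts. The summed T cell markers, mostly Cd2 and Lck, moved with the groups all the same, at 117 to 217 CPM (TMM-normalized counts scaled to a common library size) unstimulated, 71.7 to 77.4 under LPS, 115 to 130 under LPS and DSF, 34.2 to 44.5 under IL-4+anti-CD40 and 90.7 to 98.9 with DSF added to it. The summed myeloid markers stood at 827 to 853 CPM unstimulated, 732 to 775 under LPS, 533 to 551 with DSF added, 313 to 351 under IL-4+anti-CD40 and 380.3 to 447 with DSF added. The part of either list in the results below was not tested. In bulk RNA, fewer cells of a type and less RNA per cell cannot be told apart.

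The unstimulated libraries fell into 2 pairs, and several of the 10 genes differed widely between them. Tsc22d3 stood at 158 and 159 CPM in replicates 1 and 2 and at 562 and 583 in replicates 3 and 4, a mean 3.62-fold apart. Klf4 and Klf2 differed 2.25-fold and 2.24-fold in the same direction, Txnip 1.62-fold, Klf3 1.34-fold, Foxo3 1.30-fold and Btg1 1.24-fold. Foxo1 was level at 1.01-fold, and Btg2 and Pik3ip1 were lower in replicates 3 and 4, at 0.85 and 0.83 of their mean in replicates 1 and 2. Marker sums also split, erythroid from 3.21 to 3.76 against 29.9 to 30.2 CPM, neutrophil from 74.9 in both against 26.4 to 29.3, NK from 18.2 to 19.5 against 8.74 to 8.96 and B cell from 17118 to 17487 against 24611 to 25717. The markers' part in the split was not tested. Among genes whose group mean was 50 counts or more, 14.7% ranged 2-fold or more among the unstimulated replicates and 0.649% to 4.10% in the other groups. Fits with each pair left out, an alternative chosen after seeing the data, were therefore made for the 10 genes, and some are given below. None is given for the gene lists, whose values against unstimulated cells rest on all unstimulated libraries.

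**Figure D1:**
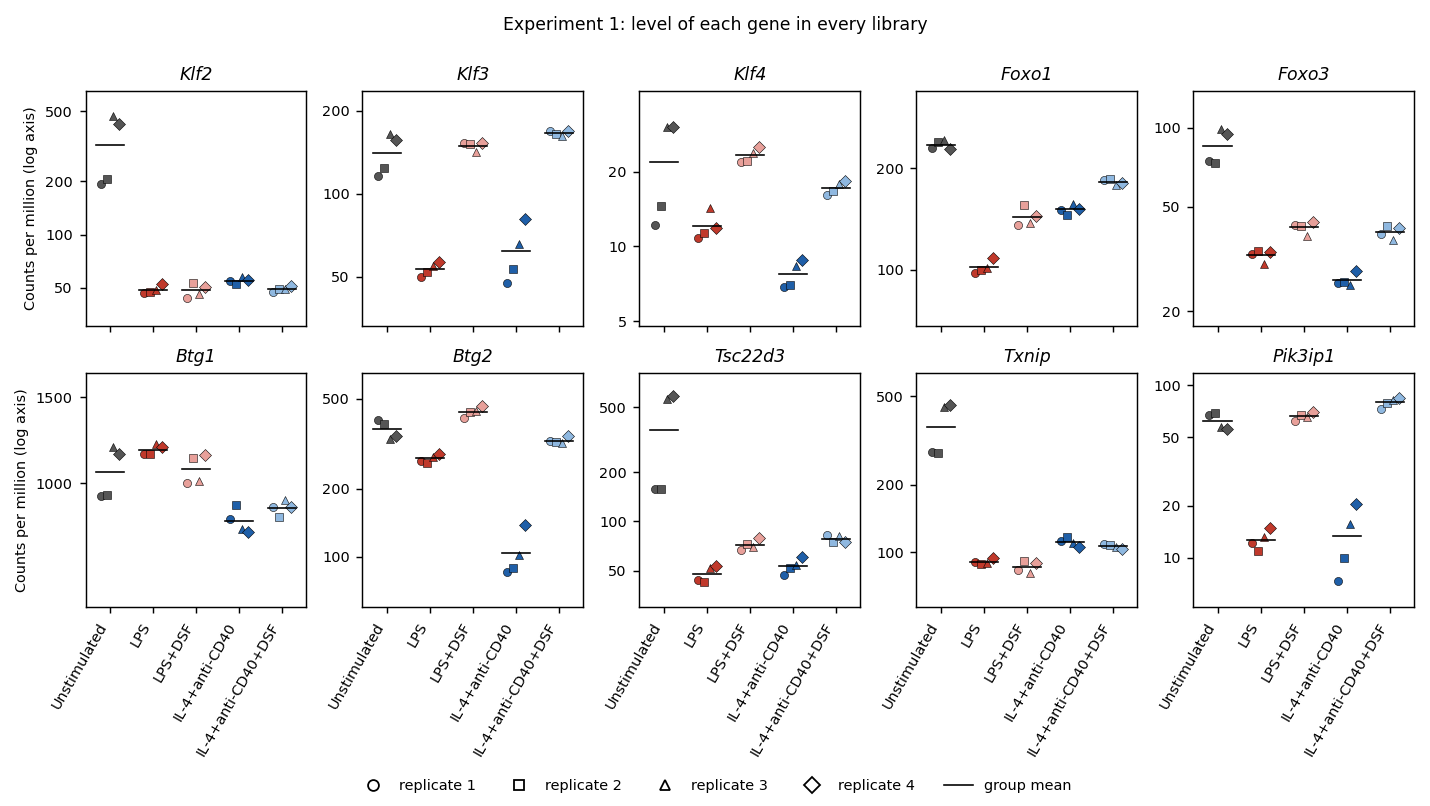
Level of each of the 10 genes in every library of the first experiment, in CPM on a log axis, with 1 marker shape for each replicate number and a line at the group mean. Klf2, Klf4, Tsc22d3 and Txnip form 2 levels among the unstimulated libraries. All genes but Klf2, Btg1 and Txnip stand higher in every DSF library than in any library of the same stimulus alone.

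Both stimuli lowered nearly all of the 10 genes within 3 h. Under LPS, 9 of 10 fell at an adjusted p under 0.05 (edgeR, Benjamini-Hochberg over all genes), where 33.3% of 14477 genes tested fell and 29.6% rose. Under IL-4+anti-CD40 all 10 fell, where 32.1% of 14433 genes fell and 30.4% rose. The median log2 fold change of the 10 was -1.39 under LPS and -1.66 under IL-4+anti-CD40, against -0.05 and -0.04 over all genes. These comparisons share the unstimulated libraries and are not independent. Of the 10 myeloid markers, 6 also fell under LPS and 8 under IL-4+anti-CD40 (list medians -0.72 and -1.21), and their part was not tested. At 2-fold or more, 7 of the 10 fell under LPS, where 15.3% of all genes did, and 8 under IL-4+anti-CD40, where 17.6% did.

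Among Klf2, Klf3 and Klf4, Klf2 fell furthest. Klf2, known for keeping naive lymphocytes recirculating and at rest, stood at 192, 205, 466 and 425 CPM in the unstimulated libraries, at 46.7, 47.2, 48.8 and 52.2 under LPS and at 54.6, 52.7, 57.3 and 55.1 under IL-4+anti-CD40. Even the lowest unstimulated library was well above every stimulated library. Klf2 was 6.62-fold lower under LPS (log2 fold change -2.73, SE 0.30, adjusted p = 8.05e-05 in edgeR) and 5.66-fold lower under IL-4+anti-CD40 (log2 fold change -2.50, SE 0.30, adjusted p = 0.000107). Without unstimulated replicates 3 and 4, the log2 fold changes were -2.03 and -1.83, and without replicates 1 and 2 they were -3.17 and -2.95. Klf3, which often acts as a repressor, fell 2.63-fold and 2.19-fold. Klf4, a brake on B cell proliferation, was called lower with both stimuli. Its log2 fold change was -0.85 for LPS (SE 0.30, edgeR adjusted p = 0.036) and -1.44 for IL-4+anti-CD40 (SE 0.31, edgeR adjusted p = 0.00293). The LPS call on Klf4 rested on unstimulated replicates 3 and 4: without them the log2 fold change was -0.15 (edgeR adjusted p = 0.271), and 6 of the 8 fits that left out a single library lost the call.

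Of the forkhead factors, Foxo3 fell 2.62-fold under LPS and 3.14-fold under IL-4+anti-CD40. Foxo1, which B cells need for their development and homing, had the tightest unstimulated values of all 10 genes, at 229.7, 239, 243 and 229 CPM. It stood at 97.3, 99.7, 101 and 108 CPM under LPS and at 150.3, 146, 157 and 152 under IL-4+anti-CD40. The 3 groups did not overlap, and Foxo1 was 2.31-fold lower under LPS (log2 fold change -1.21, SE 0.06, edgeR adjusted p = 9.54e-07) and 1.5-fold lower under IL-4+anti-CD40 (log2 fold change -0.59, SE 0.06, edgeR adjusted p = 4.70e-05).

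The antiproliferative Btg genes behaved differently from each other. Btg2, a p53-inducible and early-response gene, stood at 403, 388, 333 and 342 CPM unstimulated, at 265, 261, 277 and 286 under LPS and at 85.1, 89.0, 102 and 138 under IL-4+anti-CD40. The groups did not overlap, and Btg2 was 1.34-fold lower under LPS (log2 fold change -0.43, SE 0.08, edgeR adjusted p = 0.00133) and 3.42-fold lower under IL-4+anti-CD40 (log2 fold change -1.77, SE 0.15, edgeR adjusted p = 1.63e-05). Btg1, the most abundant of the 10, ranged from 941 to 1187 CPM unstimulated, from 1147 to 1203 under LPS and from 797 to 901 under IL-4+anti-CD40. It was not called under LPS, with a log2 fold change of 0.15 and a 95% interval from -0.06 to 0.37, and reached 1.21-fold lower under IL-4+anti-CD40 (edgeR adjusted p = 0.0466). Without unstimulated replicates 3 and 4, Btg1 was higher under LPS (log2 fold change 0.31, edgeR adjusted p = 3.75e-07), and the call under IL-4+anti-CD40 was lost (edgeR adjusted p = 0.084), as it was in 5 of the 8 fits that left out a single library.

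Tsc22d3, Txnip and Pik3ip1, which restrain inflammatory, glucose and PI3K signals, fell strongly with both stimuli. Tsc22d3 was 7.64-fold lower under LPS and 6.62-fold lower under IL-4+anti-CD40. With unstimulated replicates 3 and 4 left out, its log2 fold changes were -1.73 and -1.54 in place of -2.93 and -2.73, smaller falls than those of Pik3ip1 (-2.42 and -2.33). The alpha-arrestin gene Txnip, at 281, 277, 446 and 456 CPM unstimulated, stood at 90.4, 89.0, 89.5 and 93.7 under LPS and at 112, 116, 109.8 and 105 under IL-4+anti-CD40. No stimulated library reached the unstimulated range, and Txnip was 4.02-fold lower under LPS (log2 fold change -2.01, SE 0.18, edgeR adjusted p = 2.53e-05) and 3.17-fold lower under IL-4+anti-CD40 (log2 fold change -1.67, SE 0.18, edgeR adjusted p = 7.08e-05). Pik3ip1, at 67.1, 69.2, 57.5 and 55.5 CPM unstimulated, stood at 12.2, 10.9, 13.2 and 14.8 under LPS and at 7.39, 10.004, 15.6 and 20.5 under IL-4+anti-CD40. It was 4.88-fold lower under LPS (log2 fold change -2.29, SE 0.11, edgeR adjusted p = 1.08e-06) and 4.52-fold lower under IL-4+anti-CD40 (log2 fold change -2.18, SE 0.27, edgeR adjusted p = 0.000139), and its level varied 2.77-fold among the replicates given IL-4+anti-CD40.

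The stimuli were also compared directly, without the unstimulated cells. Of the 10 genes, 4 were higher under LPS than under IL-4+anti-CD40 and 3 were lower, where 22.3% and 17.3% of 14078 genes were called. Btg2 was 2.64-fold higher under LPS, Klf4 1.56-fold, Btg1 1.4-fold and Foxo3 1.25-fold. Foxo1 was 1.48-fold lower under LPS, Txnip 1.22-fold and Klf2 1.12-fold, and the Klf2 call was lost in 5 of the 8 fits that left out a single library. A single fit of all 20 libraries ended the Klf2 and Txnip calls (edgeR adjusted p = 0.56 and 0.0814). Klf3 (log2 fold change -0.21, 95% interval from -0.50 to 0.08), Tsc22d3 (-0.15, from -0.36 to 0.05) and Pik3ip1 (-0.06, from -0.61 to 0.50) were not called.

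Most of these genes were higher with DSF in stimulated cells of the first experiment, and Klf2, Txnip and Btg1 were not. Under LPS, 7 of the 10 were higher with DSF than without it and 1 was lower, where 35.1% of 14154 genes rose and 36% fell. Under IL-4+anti-CD40, again 7 rose and 1 fell, where 30.1% of 14275 genes rose and 31.6% fell. The median log2 fold change of the 10 genes was 0.56 and 0.52, against 0.00 and -0.02 over all genes. At 2-fold or more, 2 rose under LPS and 4 under IL-4+anti-CD40, where 11.4% and 9.59% of all genes did. The summed T cell markers given above, mostly Cd2, were also higher with DSF, and their part was not tested. By gene, 3 of the 6 tested rose and 3 fell under LPS, and 2 of 4 rose and 1 fell under IL-4+anti-CD40. Cd2 rose and Lck fell under both stimuli. The DSF comparisons have no library in common, but each shares its stimulated libraries with the comparison of that stimulus against unstimulated cells.

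Pik3ip1 rose furthest. In the LPS libraries it stood at 12.2, 10.9, 13.2 and 14.8 CPM and with DSF at 62.2, 66.7, 65.4 and 69.8, and in the IL-4+anti-CD40 libraries at 7.39, 10.004, 15.6 and 20.5 and with DSF at 72.3, 78.7, 82.3 and 84.4. Under each stimulus, no DSF library came near any library of the stimulus alone. Pik3ip1 was 5.26-fold higher with DSF under LPS (log2 fold change 2.39, SE 0.07, edgeR adjusted p = 1.57e-19) and 5.73-fold higher under IL-4+anti-CD40 (log2 fold change 2.52, SE 0.23, edgeR adjusted p = 4.89e-06). Ranked by log2 fold change, it was gene 306 from the top of 14154 under LPS and gene 138 of 14275 under IL-4+anti-CD40.

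Klf3 and Klf4 rose alongside it, whereas Klf2 did not. Klf3 stood at 50.2, 52.0, 54.7 and 56.6 CPM under LPS and at 152, 152, 142 and 152 with DSF added, and at 47.6, 53.5, 65.7 and 80.9 under IL-4+anti-CD40 and 169, 164, 162 and 169 with DSF added. The groups did not overlap, and Klf3 was 2.84-fold higher with DSF under LPS (log2 fold change 1.51, SE 0.05, edgeR adjusted p = 2.17e-19) and 2.58-fold higher under IL-4+anti-CD40 (log2 fold change 1.37, SE 0.13, edgeR adjusted p = 5.13e-06). Klf4 rose 1.95-fold and 2.13-fold. Klf2, by contrast, stood at 43.6, 52.9, 46.3 and 50.5 CPM under LPS and DSF, spanning the LPS values of 46.7 to 52.2. Its log2 fold change with DSF was 0.01 under LPS, with a 95% interval from -0.11 to 0.13, and with total counts it was called lower (-0.20, edgeR adjusted p = 0.00359). Under IL-4+anti-CD40 it fell from 52.7 to 57.3 down to 47.1 to 51.3 CPM, 1.17-fold (log2 fold change -0.22, SE 0.05, edgeR adjusted p = 0.00353), a call lost in a single fit of all 20 libraries (edgeR adjusted p = 0.523).

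Btg2 and the forkhead factors rose to different degrees. Btg2 went from 265, 261, 277 and 286 CPM under LPS to 411, 439.6, 441 and 467 with DSF, and from 85.1, 89.0, 102 and 138 under IL-4+anti-CD40 to 324, 324, 318 and 341. The groups did not overlap, and the rise was 1.63-fold under LPS (log2 fold change 0.71, SE 0.04, edgeR adjusted p = 1.22e-13) and 3.03-fold under IL-4+anti-CD40 (log2 fold change 1.60, SE 0.12, edgeR adjusted p = 1.82e-06). Foxo1 rose 1.43-fold and 1.16-fold, Foxo3 1.30-fold and 1.46-fold, and Tsc22d3 1.53-fold and 1.4-fold under LPS and IL-4+anti-CD40. When libraries were scaled to their total counts, the Foxo1 call under IL-4+anti-CD40 was lost (log2 fold change 0.06, edgeR adjusted p = 0.285). A single fit of all 20 libraries ended both Tsc22d3 calls (edgeR adjusted p = 0.111 and 0.142).

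Txnip and Btg1 differed little with DSF. Txnip stood at 83.3, 91.3, 80.8 and 89.6 CPM under LPS and DSF against 89.0 to 93.7 under LPS, and at 108, 108, 105 and 103 under IL-4+anti-CD40 and DSF against 105 to 116 without it. It was not called, with log2 fold changes of -0.05 (95% interval from -0.15 to 0.04) and -0.12 (from -0.24 to -0.01, edgeR adjusted p = 0.0508). With total counts it was called lower under both stimuli, at -0.26 (edgeR adjusted p = 1.27e-05) and -0.27 (edgeR adjusted p = 0.000763). Btg1 was 1.08-fold lower with DSF under LPS (edgeR adjusted p = 0.0242), a call lost without LPS and DSF replicate 1 or replicate 3 and in a single fit of all 20 libraries, and was not called under IL-4+anti-CD40 (log2 fold change 0.03, 95% interval from -0.10 to 0.16). An antisense gene, Gm15441, spans the whole of Txnip on the opposite strand and had at most 26 counts in a library, and the strand setting of the counting is not given in the sources used here. Klf3 is overlapped by C230096K16Rik on the same strand, with at most 96 counts in the first experiment and 199 in the second. Gm20033 overlaps Klf3 on the opposite strand, with at most 56 and 72 counts. Foxo1 and Pik3ip1 are overlapped too, by genes with at most 21 and 31 counts in the first experiment.

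**Figure D2:**
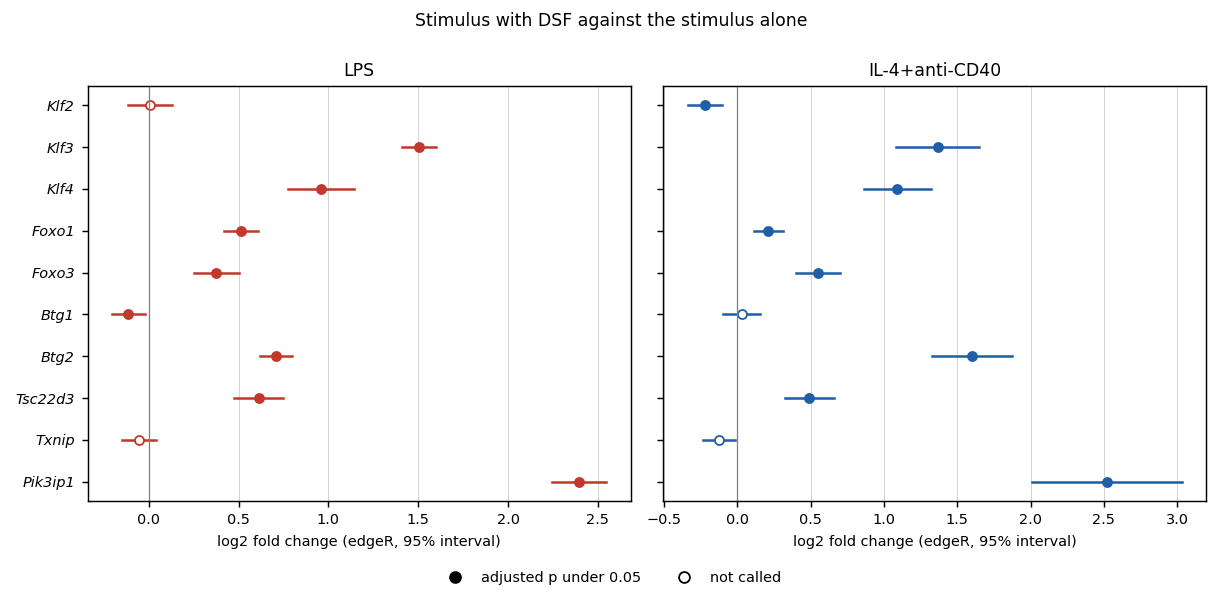
Log2 fold change of each gene between the stimulus with DSF and the stimulus alone in the first experiment, under LPS (left) and IL-4+anti-CD40 (right). Bars are 95% intervals from edgeR, with filled points for an adjusted p under 0.05 and open points for genes not called. Pik3ip1 and Klf3 lie furthest to the right under LPS, Pik3ip1 and Btg2 under IL-4+anti-CD40, and Klf2, Btg1 and Txnip lie near 0.

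The DSF effect was tested for a difference between the stimuli in a fit of all 16 stimulated libraries. Of the 10 genes, 2 differed, where 7.92% of 15130 genes had a higher effect under LPS and 6.96% a lower one. The rise of Btg2 was smaller under LPS (difference of log2 fold changes -0.90, SE 0.14, edgeR adjusted p = 0.000125), and that of Foxo1 was larger (0.30, SE 0.07, edgeR adjusted p = 0.00607), though that call was lost in a single fit of all 20 libraries (0.22, edgeR adjusted p = 0.0876). For Pik3ip1 the difference was -0.13 with a 95% interval from -0.66 to 0.39, for Klf3 0.13 (from -0.16 to 0.43) and for Klf2 0.22 (from 0.05 to 0.39, edgeR adjusted p = 0.0699).

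Against unstimulated cells of the first experiment, the 10 genes were spread from far below to slightly above the resting level in stimulated cells with DSF. Under LPS and DSF, 5 of the 10 were lower than in unstimulated cells and 1 was higher, where 37.3% and 34.3% of 14663 genes were called. Under IL-4+anti-CD40 and DSF, 6 were lower and 1 higher, where 35.3% and 33.4% of 14678 genes were called. The median log2 fold change of the 10 was -0.36 and -0.35, against -0.02 and 0.00 over all genes. Both comparisons share the unstimulated libraries with those of the stimuli alone.

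In the first experiment, Klf2, Txnip and Tsc22d3 stayed far below the unstimulated level. Klf2 was 6.70-fold lower under LPS and DSF and 6.54-fold lower under IL-4+anti-CD40 and DSF, Txnip 4.25-fold and 3.43-fold, and Tsc22d3 5.09-fold and 4.66-fold, all called. Without unstimulated replicates 3 and 4, Tsc22d3 had log2 fold changes of -1.19 and -1.05 in place of -2.35 and -2.22. Foxo3 stood between, 2.05-fold and 2.13-fold lower, as did Foxo1, 1.65-fold and 1.29-fold lower. Both had values with DSF above every library of the same stimulus alone and below every unstimulated library. Btg1 was not called with LPS and DSF (log2 fold change 0.01, 95% interval from -0.21 to 0.24) and was 1.18-fold lower with the other stimulus and DSF (edgeR adjusted p = 0.0482), a call lost in 6 of the 8 fits that left out a single library.

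Pik3ip1, Klf3, Klf4 and Btg2 stood near the unstimulated level with DSF in the first experiment. Under LPS and DSF, the log2 fold change of Pik3ip1 was 0.08 (95% interval from -0.12 to 0.27), that of Klf3 0.09 (from -0.17 to 0.34) and that of Klf4 0.09 (from -0.56 to 0.73). Btg2 was 1.19-fold higher (log2 fold change 0.25, edgeR adjusted p = 0.0217), a call lost without unstimulated replicates 3 and 4 (edgeR adjusted p = 0.0754), with a replicate block, with all genes of any count, in 3 of the 8 fits that left out a single library and with total counts, where the log2 fold change was -0.16. Under IL-4+anti-CD40 and DSF, Pik3ip1 was 1.28-fold higher (log2 fold change 0.35, edgeR adjusted p = 0.00666), and the values were 0.25 for Klf3 (from -0.01 to 0.50), -0.33 for Klf4 (from -0.98 to 0.32) and -0.16 for Btg2 (from -0.34 to 0.02). The side on which these genes lay depended on the scaling and on the unstimulated pair. With total counts, Klf3 (-0.32), Klf4 (-0.31), Btg2 (-0.16) and Pik3ip1 (-0.34) lay lower under LPS and DSF. Then 8 of the 10 genes were called lower, where 7453 of 14663 genes were called lower and 3151 higher. By pair, Klf4 under LPS and DSF had a log2 fold change of -0.39 without replicates 1 and 2 (edgeR adjusted p = 0.000225) and 0.74 without replicates 3 and 4 (edgeR adjusted p = 5.56e-07). With total counts the Pik3ip1 call under IL-4+anti-CD40 and DSF was lost (log2 fold change 0.04, edgeR adjusted p = 0.727).

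**Figure D3:**
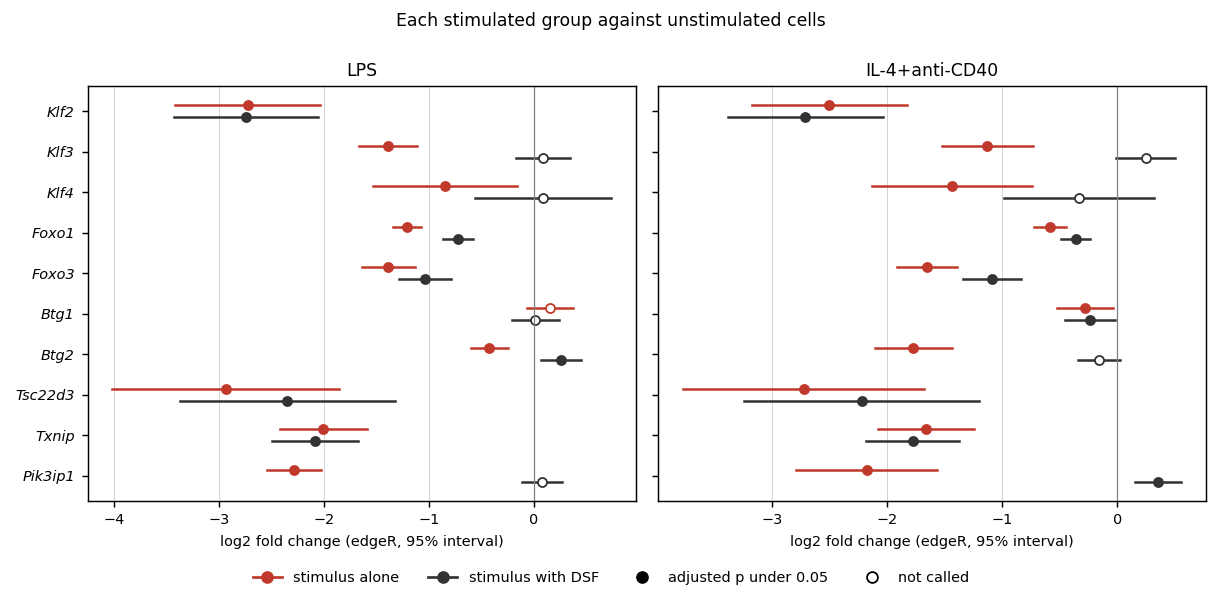
Log2 fold change of each gene against unstimulated cells in the first experiment, for LPS (left) and IL-4+anti-CD40 (right). The stimulus alone is in red and the stimulus with DSF in black, with bars as 95% intervals from edgeR and open points for genes not called. The black points of Klf3, Klf4, Btg2 and Pik3ip1 lie near 0, and those of Klf2, Txnip and Tsc22d3 stay at -1.78 or below.

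The second experiment, with 1 library a condition and no test, set DSF beside ibrutinib at the same dose of 1 μM and time of 3 h. Values are log2 ratios of TMM-normalized counts with a prior count of 2, and intervals (95%, exact Clopper-Pearson) cover counting error only. Under LPS, 5 of the 10 genes were lower by 2-fold or more (Klf2, Klf3, Foxo3, Txnip and Pik3ip1), where 9.88% of 14275 genes were, and under IL-4+anti-CD40 7 were (these 5, Btg2 and Tsc22d3), where 13.7% were. None was higher by 2-fold, against 8.62% and 10.7% of all genes.

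With DSF, 4 genes were 2-fold or more higher under LPS (Klf3, Klf4, Btg2 and Pik3ip1), where 20.3% of all genes were, and 6 under IL-4+anti-CD40 (these 4, Foxo3 and Tsc22d3), where 21.9% were. With ibrutinib none of the 10 moved 2-fold either way under either stimulus, where 2.81% of all genes rose and 2.47% fell by 2-fold under LPS, and 2.23% rose and 1.69% fell under IL-4+anti-CD40. Pik3ip1 stood at 60.5 CPM in the unstimulated library, 16.01 under LPS, 107.5 under LPS and DSF and 19.5 under LPS and ibrutinib. Under IL-4+anti-CD40 it stood at 11.9 CPM, with DSF at 124 and with ibrutinib at 10.8. Only the DSF libraries exceeded the unstimulated one. Its log2 ratio to the stimulus alone was 2.74 (2.57 to 2.93) and 3.37 (3.18 to 3.59) with DSF, and 0.28 (0.07 to 0.50) and -0.13 (-0.39 to 0.13) with ibrutinib.

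Klf3 showed the largest ratio with ibrutinib among the 10, 0.94 (0.85 to 1.04) under LPS and 0.94 (0.83 to 1.06) under IL-4+anti-CD40, against 1.83 and 2.55 with DSF. Btg2 followed, at 0.61 (0.55 to 0.67) and 0.64 (0.55 to 0.72) with ibrutinib against 2.16 and 3.07 with DSF. In CPM, Btg2 stood at 319 unstimulated, 175 under LPS, 780.1 with DSF added and 267 with ibrutinib added. Klf4 ratios with ibrutinib were 0.14 (-0.10 to 0.37) and -0.27 (-0.51 to -0.03), against 2.26 and 2.03 with DSF. Directly compared at the same dose, DSF exceeded ibrutinib by 2-fold or more in 3 genes under LPS (Klf4, Btg2 and Pik3ip1), where 19.5% of all genes were higher, and in 5 under IL-4+anti-CD40 (these 3, Klf3 and Foxo3), where 20.6% were. Foxo1 differed little between the drugs, at 0.06 (-0.01 to 0.13) under LPS and 0.22 (0.15 to 0.30) under IL-4+anti-CD40.

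Klf2 and Txnip moved far less with DSF than Pik3ip1 did. With DSF, the log2 ratio of Klf2 was 0.57 (0.50 to 0.65) under LPS and 0.57 (0.49 to 0.65) under IL-4+anti-CD40, where the first experiment had 0.01 and -0.22. Txnip had -0.50 (-0.57 to -0.43) and 0.20 (0.13 to 0.28). Against the unstimulated library, Txnip was lower by 2-fold or more with both stimuli and DSF, at 152 and 173 CPM against 461, where 20.2% of all genes under LPS and 19.1% under IL-4+anti-CD40 were. Klf2 (-0.70 and -0.84) and Tsc22d3 (-0.27 and -0.21) were within 2-fold of the unstimulated library, unlike in the first experiment. Klf4 and Btg2 were higher than unstimulated by 2-fold or more with both, and Pik3ip1 under IL-4+anti-CD40, where 19.6% and 18.9% of all genes were. Klf3 (log2 ratios 0.78 and 0.90) and, under LPS, Pik3ip1 (0.83) were above the unstimulated library by less than 2-fold. In the first experiment Klf3, Klf4, Btg2 and Pik3ip1 had stood near the unstimulated level. With total counts in the second experiment, 1 gene was higher and 2 were lower by 2-fold or more with either stimulus and DSF. The shares of all genes above are for TMM, and none is given here for total counts. Klf4 stood at 18.5 CPM unstimulated and at 67.0 and 59.0 with DSF.

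**Figure D4:**
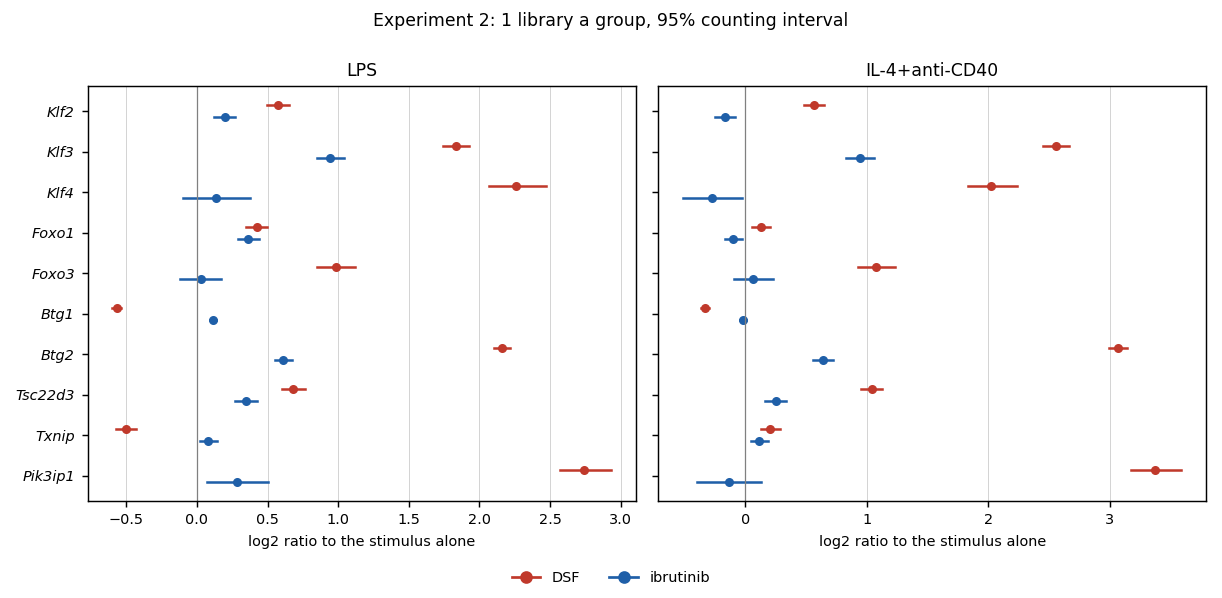
Log2 ratio of each gene to the stimulus alone in the second experiment, for DSF (red) and ibrutinib (blue) under LPS (left) and IL-4+anti-CD40 (right), with 1 library a condition and bars for 95% counting intervals. Pik3ip1, Klf3, Klf4 and Btg2 lie beyond 1.8 with DSF under both stimuli, and all ibrutinib points lie below 1.

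The wider families were described by lists of genes with a known place beside the 10, whose counts are to be read against the shares of all genes called (33.3% lower and 29.6% higher under LPS, 32.1% and 30.4% under IL-4+anti-CD40, and with DSF 35.1% higher and 36% lower under LPS, 30.1% and 31.6% under IL-4+anti-CD40). Of 14 other KLF genes, 10 were tested against unstimulated cells: 4 fell and 3 rose under LPS, and 5 fell and 3 rose under IL-4+anti-CD40, near the shares of all genes under LPS. With DSF, 6 of 9 tested rose and 2 fell under LPS, and 5 of 10 rose under IL-4+anti-CD40. Klf11 and Klf10, the TGF-β-inducible members of the family, rose by 2.83 and 2.58 on the log2 scale under LPS and by 2.31 and 1.42 under IL-4+anti-CD40, and Klf6, an early-response member, by 2.10 and 1.53. Klf13, a family member of lymphocytes, fell with both stimuli (log2 fold change -1.58 for LPS and -2.31 for IL-4+anti-CD40). Klf1, which is also among the erythroid markers listed, fell further than Klf13 and Klf2. Its log2 fold change was -4.30 (SE 1.07) for LPS and -3.08 (SE 0.93) for IL-4+anti-CD40.

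Of the PI3K and AKT genes that control FOXO, 22 of 23 were tested. Under LPS 11 fell and 4 rose, under IL-4+anti-CD40 12 fell and 1 rose, and with DSF 10 rose under either stimulus while 6 and 4 fell, against 35.1% and 30.1% of all genes higher and 36% and 31.6% lower with DSF. Sgk1, a FOXO kinase and a glucocorticoid-induced gene, fell with the stimuli (log2 fold change -1.57 and -1.79) and rose with DSF (1.56 and 1.48). Pdk1, which in the mouse is pyruvate dehydrogenase kinase and not the kinase of AKT, had the largest fall of the list with DSF under both stimuli (log2 fold change -1.64 and -1.44). Pik3cg, the catalytic subunit of PI3K gamma, fell with the stimuli (log2 fold change -1.48 and -2.40).

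Known FOXO and KLF2 targets in lymphocytes moved in both directions. Of 19 tested, 11 fell and 3 rose under LPS, and 13 fell and 2 rose under IL-4+anti-CD40, where 33.3% and 32.1% of all genes fell. With DSF 13 rose and 6 fell under LPS, and 15 rose and 2 fell under IL-4+anti-CD40, with list medians of 0.69 and 0.82. S1pr1, the receptor for egress from lymphoid tissue and a KLF2 target, fell with the stimuli (log2 fold change -3.30 and -2.73) and rose with DSF (1.99 and 1.87), and it stayed below its unstimulated level (-1.34 and -0.84). Irs2, a FOXO target in insulin signalling, rose by 2.27 and 1.71 with DSF.

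Among 15 tested BTG and TOB relatives and CCR4-NOT subunits, 9 rose and 4 fell under LPS, and 7 rose and 1 fell under IL-4+anti-CD40, where 29.6% and 30.4% of all genes rose. Tob1, a relative of Btg2 and itself a quiescence gene of T cells, fell with the stimuli (log2 fold change -1.34 and -1.43) and rose with DSF (1.78 and 1.70). With DSF 8 rose and 6 fell under LPS and 5 rose and 7 fell under IL-4+anti-CD40, where 35.1% and 30.1% of all genes rose and 36% and 31.6% fell, with list medians of 0.11 and -0.04. Of 12 alpha-arrestins, thioredoxins and MLX factors tested, 7 rose under either stimulus with DSF, and 3 and 4 fell. These included Txnrd1 (2.57 and 1.49) and Txn1 (1.43 and 1.22) of the thioredoxin system, and Arrdc3, a relative of Txnip, rose by 1.16 and 1.30 where Txnip was not called. Of the TSC22 relatives and glucocorticoid-responsive genes, 9 were tested with DSF, of which 7 rose and 1 fell under LPS and 8 rose under IL-4+anti-CD40. Per1, a clock gene that glucocorticoids induce, rose by 2.15 and 1.44, and Dusp1, a MAP kinase phosphatase, by 0.96 and 2.44.

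Over the 20 libraries of the first experiment, the genes most like each of the 10 were found by Pearson's r of log2 CPM among 11801 genes, as a description, since libraries of a group share their condition. Txnip and Klf2 were alike (r = 0.99), and the gene closest to Klf2 was Sipa1 (0.99). Pik3ip1 and Klf3 were alike (0.98), with Zdhhc20 (0.99) closest to Pik3ip1 and Ctsa (0.99) closest to Klf3. Btg1 was the least like the others, between -0.33 with Foxo1 and 0.52 with Btg2, and its closest gene was Ctss (0.95).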

How the data were processed

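Splenic B cells were profiled by poly-T-selected mRNA sequencing in 27 libraries, 20 in the first experiment and 7 in the second. Per the study's methods, the authors cleaned reads with Fastp, aligned them to mm10 with HISAT2 (2.0.5) and counted them per gene with featureCounts (1.5.0-p3). The strand setting and annotation release are not given in the sources used here. The deposited tables hold raw counts, and the authors' FPKM, which was used for levels between genes and, as log2(FPKM + 1), for a limma alternative. The log2 values here were computed from the deposited counts.

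Counts were normalized by TMM and tested with the quasi-likelihood test of edgeR (4.0.16, R 4.3.3) in pairwise fits of 8 libraries after filterByExpr, with 16 libraries for the difference in DSF effect. Benjamini-Hochberg adjustment ran over all genes tested, and an adjusted p under 0.05 was called. In the second experiment, with 1 library a condition, genes averaging 10 counts or more were given log2 ratios with a prior count of 2, and no test was made. The depth sets counting intervals there, and they cover counting error only. Scripts were tested on simulated data.

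The members and lists were chosen with earlier results of these data known. All 10 members are named, with genes closest by correlation, and at most 3 genes per list and comparison with the largest called change. Replicates differed by more than sampling noise in all 30 pairs (chi-square per gene 3.05 to 104). Alternatives were DESeq2 (1.42.0), total counts, DESeq2 size factors, other count filters, 1 fit of all 20 libraries, limma (3.58.1) on FPKM, a replicate block and leaving out each library. Some items are not reported here.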

Additional observations from a re-analysis of the deposited data

Results flagged for a closer look

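Of 50 sets of 4 replicates (10 genes in 5 groups), 2 held a library set apart from the rest, where the gap to the nearest replicate took up most of the whole range (Dixon's test). Chance gives about 1 in 20. Klf3 with LPS and DSF stood at 142.1 CPM in replicate 3 against 152 in the others, and Foxo3 with IL-4+anti-CD40 stood at 28.4 CPM in replicate 4 against 25.2 to 25.8.

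The effect of DSF differed between the stimuli for 2 of the 10 genes, where 7.92% of 15130 genes had a higher effect under LPS and 6.96% a lower one. The log2 fold change of Btg2 was lower under LPS by 0.90 (difference -0.90, SE 0.14, edgeR adjusted p = 0.000125), and that of Foxo1 was higher under LPS by 0.30 (SE 0.07, edgeR adjusted p = 0.00607). The Foxo1 call was lost in a single fit of all 20 libraries (edgeR adjusted p = 0.0876). All 4 libraries of each stimulus with DSF stood above all 4 without it for both genes.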

How the results depend on the processing

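Total counts moved the median log2 fold change of all genes to between -0.43 and -0.04 (TMM, -0.05 to 0.02) and the share of higher calls from 47.1% to 56.3% down to 29.7% to 38.3%. The causes were not tested.

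With total counts the sign turned for Btg1 with LPS (-0.071), Klf2 (-0.20, edgeR adjusted p = 0.00359) with DSF under LPS, Btg1 (-0.12) with DSF under IL-4+anti-CD40, Klf3 (-0.32), Klf4 (-0.31), Btg1 (-0.39), Btg2 (-0.16) and Pik3ip1 (-0.34) with LPS and DSF against unstimulated, and Klf3 (-0.057) with IL-4+anti-CD40 and DSF against unstimulated. Counts of genes became 3 lower with DSF under LPS and 2 under IL-4+anti-CD40, 5 lower for LPS against IL-4+anti-CD40, 0 higher and 8 lower with LPS and DSF against unstimulated, 0 higher with IL-4+anti-CD40 and DSF, 2 lower for the difference in DSF effect, and in the second experiment 1 higher and 2 lower with either stimulus and DSF against unstimulated. Over all genes, total counts called 6680 of 14154 lower with DSF under LPS and 5832 of 14275 under IL-4+anti-CD40. They called 4712 of 14078 lower for LPS against IL-4+anti-CD40, and 1423 of 15130 for the difference in DSF effect. With LPS and DSF against unstimulated they called 3151 of 14663 higher and 7453 lower, and 3117 of 14678 higher with IL-4+anti-CD40 and DSF. No share with total counts is given here for the second experiment.

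All genes with any count turned Klf2 with DSF under LPS (-0.052), and Btg1 (-0.064) and Pik3ip1 (-0.0028) with LPS and DSF against unstimulated, where 0 genes were higher. At least 10 counts in every library left 0 lower with DSF under LPS and 2 higher for the difference in DSF effect. The single fit of all 20 libraries turned Klf2 with DSF under LPS (-0.010) and the Txnip difference in DSF effect (-0.0075). It left 0 lower with DSF under either stimulus, 1 lower for LPS against IL-4+anti-CD40, and 0 higher with IL-4+anti-CD40 and DSF and for the difference in DSF effect. On log2(FPKM + 1) in limma, Klf2 with DSF under LPS was -0.014. A mean of at least 50 counts gave 5 genes higher with DSF than ibrutinib under LPS.

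Same-numbered libraries did not deviate together (correlations -0.06 to 0.17), so the numbers were not taken as pairs. With the replicate block the count of calls over all genes was 0.920 to 0.999 of that without it, Pik3ip1 for LPS against IL-4+anti-CD40 turned to 0.019, and 0 genes were higher with LPS and DSF than unstimulated.

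Without unstimulated replicates 1 and 2, Klf3 (-0.11), Klf4 (-0.39) and Btg1 (-0.13) turned with LPS and DSF and 2 genes were higher. Without replicates 3 and 4, Pik3ip1 (-0.10) turned with LPS and DSF and Klf4 (0.33) with IL-4+anti-CD40 and DSF. Then 1 gene was higher with LPS, and 3 with either stimulus and DSF.

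Leaving out 1 library, Klf2 with DSF under LPS ranged from -0.044 to 0.046 and Pik3ip1 for LPS against IL-4+anti-CD40 from -0.26 to 0.21. With LPS and DSF against unstimulated, Klf3 ranged from -0.030 to 0.15, Klf4 from -0.14 to 0.26, Btg1 from -0.072 to 0.054 and Pik3ip1 from -0.0023 to 0.11. In the difference in DSF effect, Klf3 ranged from -0.013 to 0.24 and Pik3ip1 from -0.40 to 0.063. Counts ranged from 0 to 1 lower with DSF under LPS, 1 to 2 lower under IL-4+anti-CD40, 0 to 1 higher with LPS and DSF against unstimulated, and 1 to 2 higher with IL-4+anti-CD40 and DSF and for the difference in DSF effect.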

Other observations

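Other quiescence genes outside the KLF and FOXO set moved in both directions. Of 13 tested, 8 fell and 3 rose under LPS, and 7 fell and 2 rose under IL-4+anti-CD40, where 33.3% and 32.1% of all genes fell and 29.6% and 30.4% rose. Mxd4, a MYC antagonist, fell with the stimuli (log2 fold change -3.02 and -3.17), as did Ets1, a factor that restrains plasma cell differentiation (-1.90 and -2.36). Foxj1, with the largest change of the list under LPS, rose with both (3.24 and 1.97). With DSF 4 rose and 8 fell under LPS, and 4 rose and 5 fell under IL-4+anti-CD40, where 35.1% and 30.1% of all genes rose and 36% and 31.6% fell. Cdkn1a, the cell cycle inhibitor p21, rose by 2.37 and 1.47 with DSF, having also risen by 2.44 and 2.33 with the stimuli (SE 0.80 and 0.86). Tsc2, which restrains mTORC1, fell with DSF (-1.27 and -1.21), as did Ikzf1, the lymphoid factor Ikaros (-1.31 and -1.04).

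Immediate early genes, to which Btg2 and Klf4 are often counted, were measured too. Of 14 tested with DSF, 12 rose and 1 fell under LPS, where 35.1% of all genes rose, and 10 rose and 2 fell under IL-4+anti-CD40, where 30.1% did. Atf3, a stress-induced factor, rose by 2.86 and 2.47, Fosb by 2.55 and 1.73 and Fos by 1.87 and 1.66. Fos and Fosb were lower with the stimuli alone than in unstimulated cells, with log2 fold changes for Fos of -2.97 (LPS, SE 0.80) and -3.58 (IL-4+anti-CD40, SE 0.89). Jun rose by 2.62 under LPS and fell by 0.51 with DSF added to it. Under IL-4+anti-CD40 Jun was not called (0.05), and it rose by 1.60 with DSF added.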
